A study of Homo sapiens with 10 samples.

Results

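The genes described here are those of the interleukin-7 receptor in T-lineage cells and of the JAK, STAT and PIM families that act with it or beside it. They are the receptor chains IL7R and IL2RG, the Janus kinases JAK1, JAK3 and TYK2, the transcription factors STAT3, STAT5A and STAT5B, and the PIM kinases PIM1 and PIM2. They were chosen by name and matched from versioned Ensembl IDs to symbols, and all 10 were found among the 55889 IDs of the files. The cells were KOPT-K1, an established human T-cell acute lymphoblastic leukaemia line grown in culture, so the data describe 1 cell line. They were treated for 45 min with 25 nM silvestrol, a natural product that inhibits the RNA helicase eIF4A of the translation initiation complex, or with its solvent DMSO. Ribosome footprints were sequenced from 2 libraries per treatment and total RNA from 3 libraries per treatment. Values are RPKM, reads scaled to gene length and to the library total, as deposited by the authors.

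Interleukin-7 binds a receptor made of IL7R, which is its specific chain, and IL2RG, the common gamma chain that several interleukin receptors share. JAK1 sits on IL7R and JAK3 on IL2RG; once activated they phosphorylate STAT5A and STAT5B, which enter the nucleus and switch on target genes, PIM1 among them. PIM kinases are active as soon as they are made, so their activity follows their synthesis and decay, and gain-of-function lesions of IL7R, JAK1, JAK3 and STAT5B are known in this leukaemia.

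The study asked about G-quadruplexes, folded structures that runs of G can form in an mRNA leader, and eIF4A. The 5' untranslated regions (UTRs) of the 10 genes were therefore searched on the mRNA strand, in the GENCODE 29 transcript chosen for each gene on GRCh38, for 3 patterns. The patterns were 4 GGC or 4 CGG triplets in a row, 4 GGG separated by 1 to 6 N, and 4 GG separated by 1 to 7 N. Shown here are the matches of the strictest patterns, and 1 of the 3 GG matches of STAT5B. STAT5B had the lowest change in translational efficiency among the 10, and that change did not pass the test. Any link between such matches and the changes was not tested. Each match shown lies in the 5' UTR within 1 exon, and capitals mark the matched pattern.
PIM1, 4 CGG triplets, chr6:37170225-37170248, plus strand: tggcagCGGCGGCGGCGGgaccgg
IL2RG, 4 GGG, chrX:71111594-71111623, minus strand: cgtgtGGGTGGGGAGGGGTAGTGGGtgagg
TYK2, 4 GGG, chr19:10380531-10380559, minus strand: ccgcGGGAGCGGGGAGGGGTCCGGGttcg
STAT5B, 4 GG, chr17:42276297-42276325, minus strand: gggagGGAGCGAGCGGGCGGGCGGgcaag

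PIM1 was the only one of the 10 with the triplet pattern, which 4.73% of 8814 tested protein-coding genes with an annotated 5' UTR held. IL2RG and TYK2 were the ones with 4 GGG, against 8.99% of those genes. The loosest pattern, 4 GG, was found in 6 of the 10 (IL2RG, TYK2, STAT3, STAT5A, STAT5B and PIM1) and in 69.1% of those genes, and some of its matches overlap those of the stricter patterns. IL7R, JAK1, JAK3 and PIM2 had no match to any of the 3. In the transcript with the longest annotated 5' UTR of each gene, the same genes held the 2 stricter patterns. The 5' UTRs ran from 92 nt in IL2RG to 642 nt in STAT5A around a median of 197 nt for tested genes, and 5 of the 10 were longer than that median. Their GC content was lowest in IL7R at 44.2% and highest in STAT5B at 79.3%, with 75.1% in PIM1 and a median of 66.0% over tested genes. A match describes the letters of the annotated leader only, not a folded structure.

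The footprint libraries were far shallower than the RNA libraries. From the step between low RPKM values, which are whole multiples of what 1 read is worth, the footprint totals were estimated at 1.66 M to 2.38 M reads and the RNA totals, more roughly, at 127 M to 217 M. Between replicates the log2 values correlated across genes with r of 0.921 and 0.929 in footprints and 0.998 to 0.999 in RNA, genes not being independent replicates, and the median SD of a gene was 0.18 and 0.19 (log2) in footprints against 0.04 and 0.05 in RNA. The labels do not say whether replicates were separate cultures, so p-values here rest on the variation among these libraries alone, and that may be technical. All 10 T-lineage markers, CD3 chains, CD2, CD5, CD7 and LCK among them, stood at 1 RPKM or more in every group. Their summed RNA was 1467 to 1509 RPKM under DMSO and 1441 to 1493 under silvestrol, and their summed footprints 2353 to 2400 and 2056 to 2214. Of 6 B-lineage markers only CD79A and CD79B reached 1 RPKM, with a summed RNA of the list of 39.5 to 41.4 RPKM under DMSO and 37.7 to 39.5 under silvestrol. Myeloid, erythroid and stromal markers all stayed under 1 RPKM, with summed RNA of at most 0.184, 0.0444 and 0.275 RPKM in any library.

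Under silvestrol, none of the 10 genes passed the test in RNA, in footprints or in translational efficiency, here the footprint change relative to the RNA change. Calls were made at an adjusted p under 0.05, from limma on log2(RPKM + 0.5) with Benjamini-Hochberg adjustment over all 10297 tested genes, those with a mean of at least 1 RPKM in both assays. All 10 genes were tested. In translational efficiency 0 of 10 were called, against 0.107% of all tested genes (9 lower and 2 higher), and 1 of 10 (STAT5B) had an unadjusted p under 0.05, as did 760 of the 10297. In footprints 0 of 10 were called, against 0.0486% of genes (3 lower and 2 higher, or 3 and 5 with TMM-type scaling), and 0 of 10 had an unadjusted p under 0.05, against 719 of the 10297. In RNA 0 of 10 were called, against 0.282% of genes (1 lower and 28 higher), and 1 of 10 (IL2RG) had an unadjusted p under 0.05, as did 950 of the 10297. With 1 spread assumed for both assays, which called 5.29% of genes in translational efficiency, 0 of 10 were called and 2 of 10 (JAK1 and STAT5B) had an unadjusted p under 0.05, as did 2300 of the 10297. The counts of low unadjusted p given for gene lists further on are to be read against these counts over all tested genes. The fit with 1 spread made false calls on simulated data, since footprints vary more than RNA. Its calls of single genes further on carry that limit.

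The estimates themselves lay mostly a little below 0, as did those of most tested genes in footprints and translational efficiency. The median log2 change of the 10 genes was -0.17 in translational efficiency, against -0.08 for all tested genes, with 8 of 10 below 0 against 6169 of 10297. In footprints it was -0.16 against -0.07, with 8 of 10 below 0 against 6129 of 10297. In RNA it was -0.02 against 0.00, with 7 of 10 below 0 against 4895 of 10297. Since RPKM is relative to each library's own total, a loss of translation common to all genes does not show in these values. The precision differed by assay. For RNA, the widest interval over the 10 genes, that of PIM2 on the low side and IL7R on the high side, reached folds of 0.870 and 1.12. For translational efficiency the intervals reached down to 0.431 (PIM2) and up to 2.18 (JAK3), the 2 genes with the largest SE. For footprints alone they were wider, down to 0.401 (PIM2) and up to 2.82 (JAK3). The translational efficiency fit weighted each assay alike for all genes, so its SE can be smaller than that of footprints alone.

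**Figure D1:**
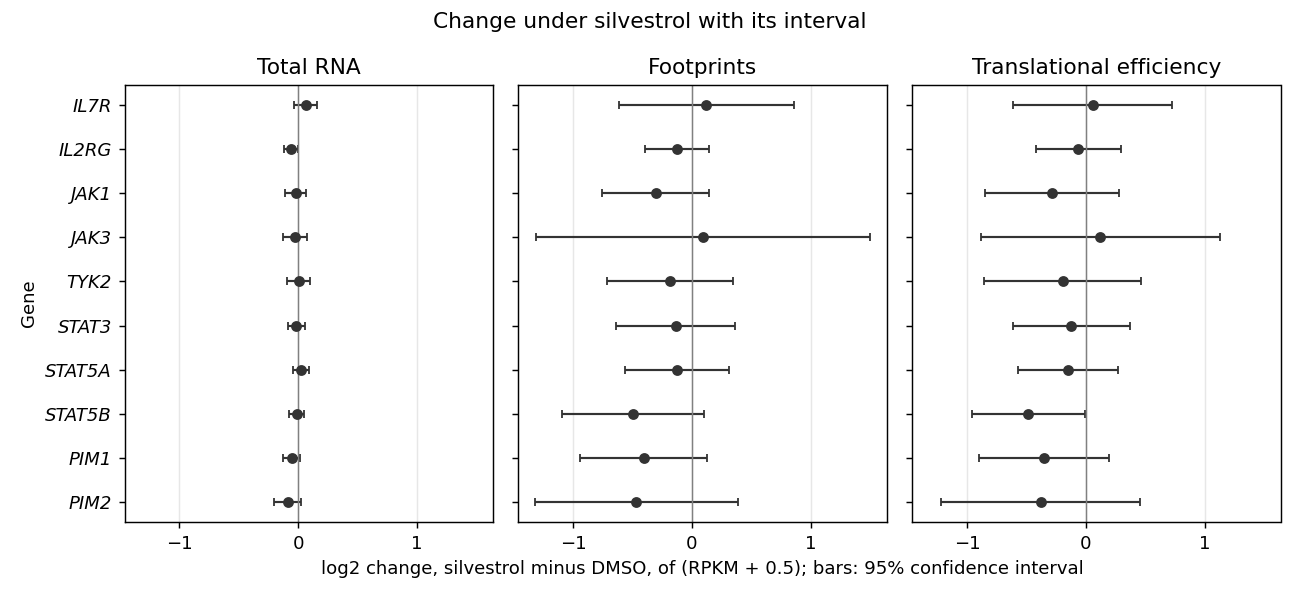
Log2 change of (RPKM + 0.5), silvestrol minus DMSO, for the 10 genes in total RNA (3 libraries per treatment), footprints (2 per treatment) and translational efficiency (all 10 libraries). Points are limma estimates and bars 95% confidence intervals. The RNA intervals lie within -0.20 and 0.16. In translational efficiency that of STAT5B alone ends below 0, at -0.01, while its footprint interval reaches 0.10.

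Footprint groups that do not overlap were compared with their background. In 5 of the 10 genes (IL2RG, JAK1, TYK2, STAT5B and PIM1) both silvestrol footprint libraries lay below both DMSO libraries, a pattern that 25.2% of tested genes showed. None of the 10 showed the opposite pattern, which 13.1% of tested genes did. In RNA, all 3 silvestrol libraries lay below all 3 DMSO libraries in 1 of 10 genes, IL2RG, against 3.99% of tested genes, and above them in 0 of 10, against 8.97%. Each footprint group has 2 libraries, and no difference between the 10 genes and the other genes was tested.

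The levels of the genes spanned a wide range under DMSO. RPKM is a value per length of the gene model, so RNA levels of different genes can be set side by side, while footprint levels, which come mainly from the coding region, also depend on the length of the UTRs. In total RNA the order was IL2RG, PIM1, STAT5A, STAT5B, TYK2, STAT3, JAK1, JAK3, IL7R and PIM2. TYK2 and STAT3 overlapped in their libraries, as did JAK3 with IL7R and IL7R with PIM2, and every other pair of neighbours was separated. In footprints the order was IL2RG, PIM1, STAT3, STAT5A, JAK1, STAT5B, TYK2, PIM2, JAK3 and IL7R, where JAK1 overlapped STAT5B and the last 3 overlapped in turn. IL2RG mRNA ranked at percentile 97.8 of 9017 tested protein-coding genes and PIM1 at 93.2, whereas IL7R, JAK3 and PIM2 ranked at 17.3, 18.7 and 16.0.

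**Figure D2:**
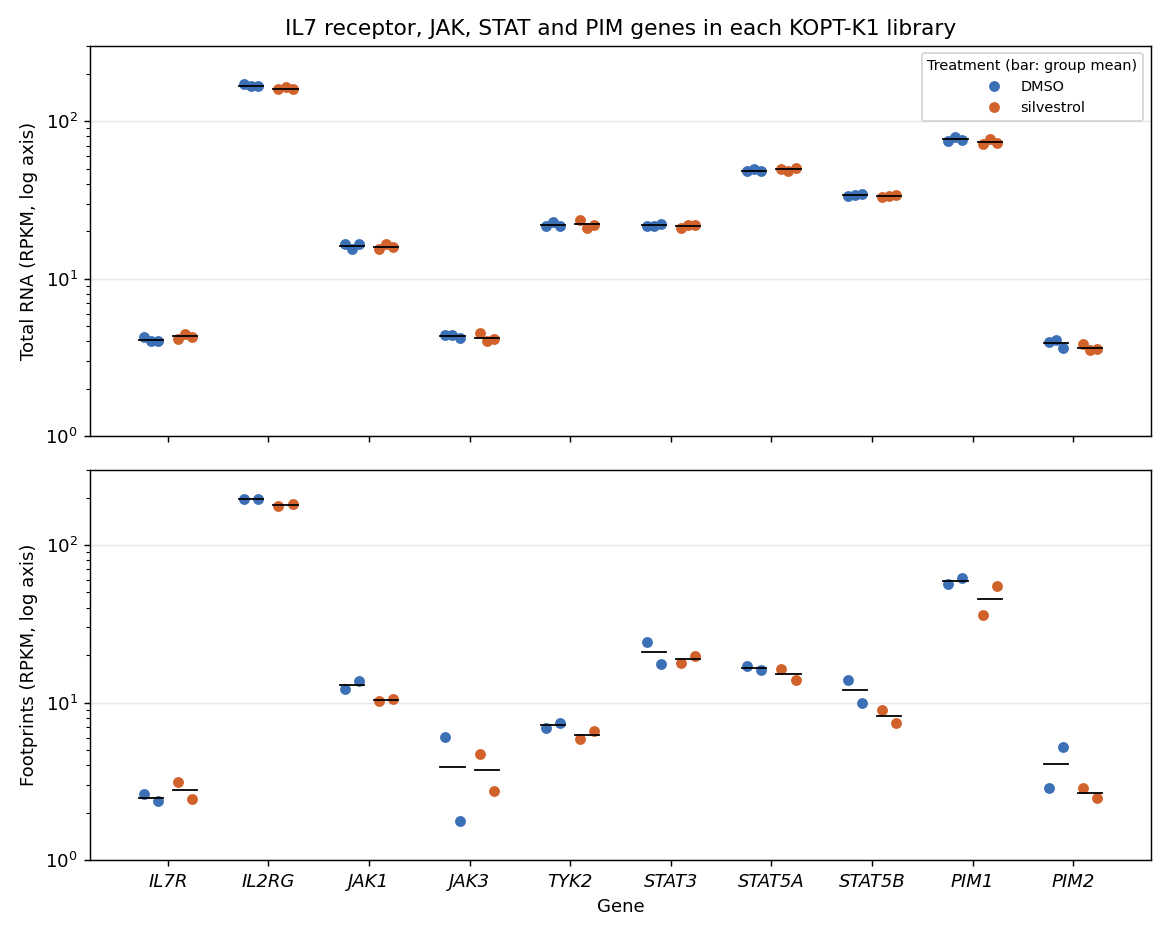
RPKM of the 10 genes in every library on a log axis, total RNA above and footprints below; points are single libraries and horizontal bars group means. RNA points of the 2 treatments lie close together for every gene, while JAK3, PIM2, STAT5B and PIM1 spread visibly between footprint replicates.

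IL7R, the chain that gives the receptor its specificity for interleukin-7, was one of the least abundant of these mRNAs. Its RNA was 4.28, 4.03 and 4.02 RPKM under DMSO and 4.17, 4.49 and 4.29 RPKM under silvestrol, with overlapping groups. Its footprints were 2.62 and 2.38 RPKM under DMSO and 3.12 and 2.43 under silvestrol, again overlapping, and correspond to only about 24 to 45 reads per library. Its translational efficiency had a log2 change of 0.06 (SE 0.31, 95% interval -0.61 to 0.73, limma adjusted p = 0.989). Leaving out the silvestrol footprint replicate 1 turned its sign to -0.10.

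IL2RG, the gamma chain, was the most abundant of the 10 at both levels. Its RNA was 172, 166 and 166 RPKM under DMSO and 159, 164 and 160 RPKM under silvestrol. Its footprints were 195 and 197 RPKM under DMSO and 178 and 181 under silvestrol, about 904 to 1221 reads per library. In both assays the silvestrol libraries lay below the DMSO libraries without overlap, by a small margin. The log2 RNA change was -0.06 (SE 0.03, limma adjusted p = 0.512) and the log2 footprint change -0.13 (SE 0.11, adjusted p = 0.825). Translational efficiency differed by -0.07 (SE 0.16, 95% interval -0.42 to 0.29, adjusted p = 0.969), and by 0.02 with TMM-type scaling. IL2RG exceeded IL7R 40.2 to 41.3 times in RNA and 74.4 to 82.8 times in footprints of the DMSO libraries, per length of the gene model. The coding region makes up 1107 of 2760 nt of that length in IL2RG and 1377 of 6060 nt in IL7R, so the footprint excess would be smaller per coding length. Of its 1078 coding windows of 30 bases, 89.5% recur in AL590764.2, an overlapping gene of GENCODE 29. That gene is not among the IDs of the deposited data.

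JAK1, the kinase that pairs with IL7R and with many other cytokine receptors, was 16.5, 15.5 and 16.7 RPKM in DMSO RNA and 15.5, 16.6 and 15.9 RPKM in silvestrol RNA. The RNA groups covered nearly the same range. Its footprints were 12.2 and 13.8 RPKM under DMSO and 10.3 and 10.5 under silvestrol, so the silvestrol pair lay lower. Translational efficiency differed by a log2 value of -0.29 (SE 0.26, 95% interval -0.85 to 0.28, limma adjusted p = 0.872), and with 1 spread for both assays the same difference had an adjusted p of 0.148. Its footprints numbered about 135 to 175 reads per library.

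JAK3, the kinase bound to the gamma chain and largely restricted to blood cells, was 4.37, 4.39 and 4.21 RPKM in DMSO RNA and 4.50, 4.03 and 4.16 RPKM in silvestrol RNA. The footprint replicates differed more than the treatments, at 6.02 and 1.77 RPKM under DMSO and 4.69 and 2.74 under silvestrol, or about 93, 20, 76 and 38 reads. The change in translational efficiency was accordingly the least precise of the 10, with a log2 value of 0.12 (SE 0.46, 95% interval -0.88 to 1.13, limma adjusted p = 0.981). It was 0.88 without the DMSO footprint replicate 1 and -0.64 without replicate 2.

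TYK2, which serves interferon and interleukin-12 family receptors, was 21.5, 22.9 and 21.7 RPKM in DMSO RNA and 23.6, 20.9 and 21.9 RPKM in silvestrol RNA. The RNA groups overlapped. Its footprints were 6.93 and 7.47 RPKM under DMSO and 5.91 and 6.62 under silvestrol, with the silvestrol pair lower. For translational efficiency the log2 change was -0.19 (SE 0.30, 95% interval -0.85 to 0.47, limma adjusted p = 0.942), and -0.12 without the silvestrol footprint replicate 1. The order of TYK2 and JAK1 was opposite in the assays: TYK2 exceeded JAK1 1.30 to 1.48 times in the DMSO RNA libraries, and its footprints were 0.541 to 0.568 times those of JAK1. The same held under silvestrol, with ratios of 1.26 to 1.52 in RNA and 0.574 to 0.631 in footprints.

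STAT3, the member of the family that interleukin-6 and interleukin-21 type receptors activate most, was 21.7, 21.5 and 22.2 RPKM in DMSO RNA and 20.9, 22.0 and 21.9 RPKM in silvestrol RNA. Its footprints were 24.3 and 17.7 RPKM under DMSO and 17.8 and 19.9 under silvestrol. The first DMSO footprint library was the highest and the second the lowest, so the silvestrol pair lay between them. On the log2 scale translational efficiency differed by -0.12 (SE 0.23, 95% interval -0.62 to 0.37, limma adjusted p = 0.950), and 0.10 without that first library.

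STAT5A, the close relative of STAT5B that interleukin-7 and interleukin-2 receptors activate alongside it, was 48.1, 49.4 and 48.3 RPKM in DMSO RNA and 49.5, 48.3 and 50.6 RPKM in silvestrol RNA. Its footprints were 17.2 and 16.0 RPKM under DMSO and 16.4 and 14.0 under silvestrol. Both assays overlapped between treatments. The log2 change in translational efficiency was -0.15 (SE 0.19, 95% interval -0.57 to 0.27, limma adjusted p = 0.922). It was -0.26 without the silvestrol footprint replicate 1 and -0.04 without replicate 2.

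STAT5B, the form that carries activating mutations in some T-cell leukaemias, was 33.4, 34.1 and 34.4 RPKM in DMSO RNA and 33.1, 33.7 and 34.2 RPKM in silvestrol RNA. Its RNA did not separate by treatment. Its footprints were 14.0 and 9.89 RPKM under DMSO and 9.0 and 7.47 under silvestrol, so the groups did not overlap but the DMSO replicates lay further apart than the nearest pair of the 2 treatments. The log2 change in translational efficiency was -0.48 (SE 0.22, 95% interval -0.96 to -0.01), the lowest of the 10. Its limma p was 0.0470 before adjustment and 0.671 after it. Without the DMSO footprint replicate 1 the change was -0.24, and without replicate 2 it was -0.72.

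The STAT5 pair shares sequence. Of the 30-base windows of the coding region, 699 occur in both genes, which is 29.7% of those of STAT5A and 29.97% of those of STAT5B, and the sources used here do not say how reads that match both were counted. The separate values of STAT5A and STAT5B are therefore uncertain. STAT5A exceeded STAT5B 1.40 to 1.45 times in DMSO RNA and 1.43 to 1.496 times in silvestrol RNA. In footprints the ratio was 1.23 and 1.62 under DMSO and 1.82 and 1.87 under silvestrol, from 2 libraries in each. How often the ratios of other gene pairs separate in this way was not counted. The difference between the changes of the 2 genes was not tested.

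PIM1, a serine/threonine kinase that promotes survival and growth, was 75.1, 79.1 and 75.8 RPKM in DMSO RNA and 71.6, 76.8 and 73.0 RPKM in silvestrol RNA. Its RNA groups overlapped. Its footprints were 56.5 and 61.5 RPKM under DMSO and 35.8 and 55.1 under silvestrol, about 253 to 381 reads per library. Both silvestrol libraries were below the DMSO pair, the first by much more than the second. Its translational efficiency had a log2 change of -0.35 (SE 0.25, 95% interval -0.90 to 0.20, limma adjusted p = 0.829). Without the silvestrol footprint replicate 1 it was -0.04, and without replicate 2 it was -0.66. PIM1, whose leader holds the run of CGG triplets printed above, thus had an estimate whose size depended on 1 library.

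PIM2, a kinase with overlapping substrates, was 3.98, 4.11 and 3.66 RPKM in DMSO RNA and 3.87, 3.51 and 3.59 RPKM in silvestrol RNA. Its footprints were 2.88 and 5.23 RPKM under DMSO and 2.89 and 2.49 under silvestrol, or about 14 to 24 reads per library. One DMSO library was high and the other level with silvestrol. The log2 change in translational efficiency was -0.38 (SE 0.38, 95% interval -1.22 to 0.46, limma adjusted p = 0.901), and 0.00 without the DMSO footprint replicate 2. PIM1 mRNA exceeded PIM2 mRNA 18.9 to 20.7 times under DMSO and 18.5 to 21.9 times under silvestrol. The remaining family member, PIM3, stood between them at 32.9, 35.3 and 32.3 RPKM in DMSO RNA and 33.0, 32.5 and 33.0 in silvestrol RNA. Its footprints were 22.4 and 20.3 RPKM under DMSO and 24.1 and 24.0 under silvestrol, and its log2 change in translational efficiency was 0.20 (SE 0.23, limma adjusted p = 0.921).

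The ratio of footprints to RNA before any inhibitor differed more between the genes than it did between treatments. It was computed as each DMSO footprint library over the mean of the DMSO RNA libraries, and its median over 9017 tested protein-coding genes was 0.724. TYK2, STAT5A and STAT5B had the lowest ratios of the 10, with means of 0.327, 0.342 and 0.352, at percentiles 8.99, 9.95 and 10.7 of tested genes. Next came IL7R at 0.608, the fourth below the median gene. PIM1 at 0.770, JAK1 at 0.801, JAK3 at 0.901 and STAT3 at 0.963 lay above it. PIM2 at 1.04 and IL2RG at 1.17 were highest, IL2RG at percentile 82.9.

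The ratios of single libraries show the spread behind these means. TYK2 gave 0.315 and 0.339, STAT5A 0.354 and 0.329, and STAT5B 0.412 and 0.291, all below both ratios of each of the other genes except the lower value of JAK3, whose ratios were 1.39 and 0.409. IL2RG gave 1.16 and 1.17 with the deepest coverage of the 10. Under silvestrol the median gene was at 0.681, and TYK2, STAT5A and STAT5B were again the lowest at 0.283, 0.307 and 0.245. RPKM divides by the length of a gene model while footprints lie mainly in the coding region, and the ratio was not corrected for the length of UTRs. Nor was it corrected for coding windows that recur in other genes, 29.7% in STAT5A and 29.97% in STAT5B, which share them with each other. The 89.5% in IL2RG recur in a gene that is not among the IDs of the deposited data. The part of recurring windows in these ratios was not tested.

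**Figure D3:**
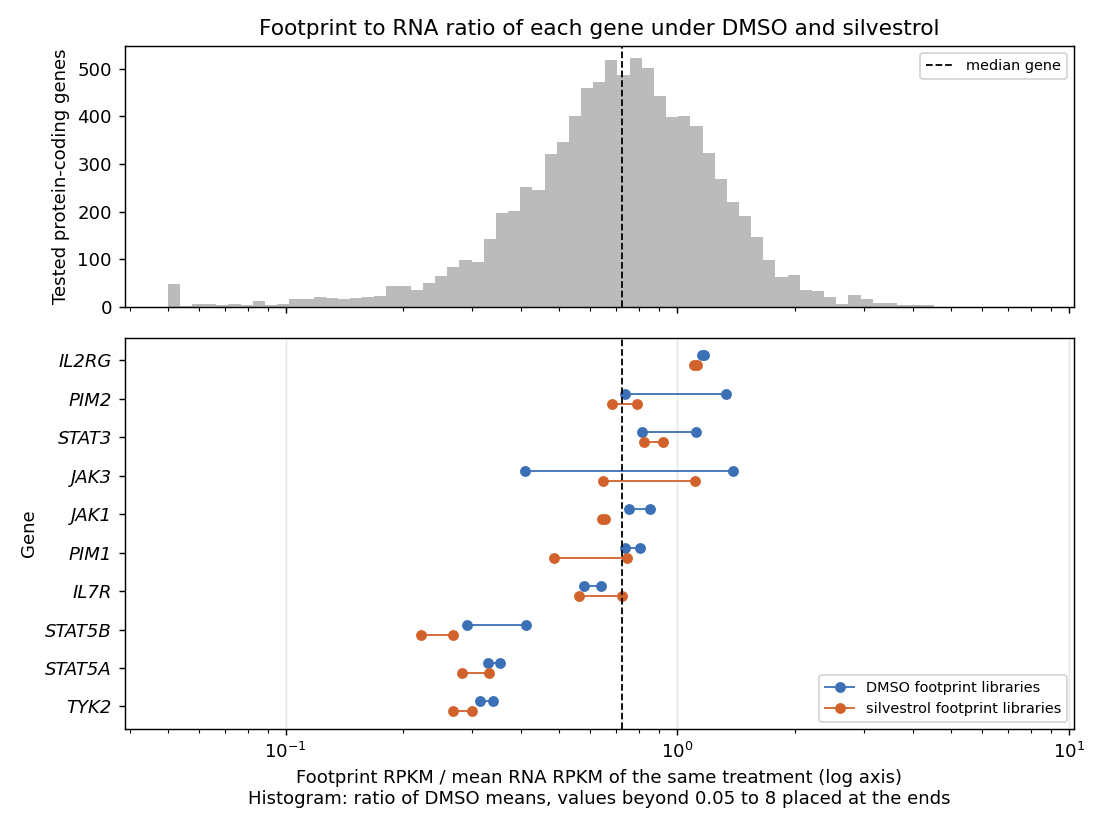
Above, histogram of the footprint to RNA ratio of 9017 tested protein-coding genes under DMSO (log axis); below, the ratio of each of the 10 genes in each footprint library, the line joining the 2 replicates of a treatment. The dashed line is the median gene at 0.724; TYK2, STAT5A and STAT5B lie well below it in every library, IL2RG above it.

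Genes around the core pathway were read from fixed lists. Of 20 other cytokines and receptor chains, 9 were tested and 0 of 9 were called in translational efficiency, footprints or RNA, with 3, 2 and 2 at an unadjusted p under 0.05. IL7 itself and CRLF2, the partner of IL7R in the receptor for TSLP, were listed at 0 in all 10 libraries. IL2RA, the inducible alpha chain of the interleukin-2 receptor, was at most 0.0534 RPKM in RNA and listed at 0 in footprints, while the beta chain IL2RB, which uses the same gamma chain, was 9.39, 9.24 and 9.0 RPKM in DMSO RNA and 9.18, 8.22 and 8.86 in silvestrol RNA. The median log2 change in translational efficiency of the 9 was 0.08, against -0.08 for all tested genes.

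IL15RA, which presents interleukin-15, had the largest difference in that list. Its footprints were 4.32 and 2.95 RPKM under DMSO and 0.824 and 1.44 under silvestrol, about 7 reads in the lowest library, while its RNA was 3.51 to 3.59 and 3.47 to 3.75 RPKM. Its translational efficiency had a log2 change of -1.36 with an SE of 0.34 (limma adjusted p = 0.286), and with 1 spread for both assays it was called lower (adjusted p = 0.0288). IFNGR2, a chain of the interferon-gamma receptor, stood at 0.72 (SE 0.29, adjusted p = 0.586) and IL10RB at -0.49 (SE 0.22, adjusted p = 0.666). Of the coding windows of IL10RB, 95.2% recur in other genes, so its level is uncertain. The RNA differences of these genes were small, at -0.15 for IFNGR2, -0.09 for IL10RB and -0.07 for IL2RB, and none passed the test (adjusted p = 0.146, 0.289 and 0.710).

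All 6 of the remaining JAK, STAT and PIM genes were tested, and 0 of 6 were called in any of the 3 comparisons, with 0, 0 and 1 at an unadjusted p under 0.05. In translational efficiency their median log2 change was -0.06. STAT6 stood at -0.46 (SE 0.23) and STAT4 at 0.31 (SE 0.31), with limma adjusted p values of 0.692 and 0.901. In footprints STAT6 and STAT4 differed by -0.43 and 0.26 (adjusted p = 0.769 and 0.829). JAK2, the kinase of TSLP and interferon-gamma receptors, was the one with the low RNA p. Its RNA was 4.13, 3.94 and 4.10 RPKM under DMSO and 4.34, 4.40 and 4.34 under silvestrol, a log2 difference of 0.09 (SE 0.04, adjusted p = 0.478). STAT4 and STAT6 differed by -0.05 and 0.03 in RNA (adjusted p = 0.867 and 0.859).

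The negative regulators, SOCS proteins, phosphatases, PIAS proteins and adaptors, gave 15 tested genes of the 19 found from a list of 20. In each of the 3 comparisons 0 of 15 were called and 0 had an unadjusted p under 0.05, and their translational efficiency had a median log2 change of -0.09. CISH and SOCS1, feedback inhibitors that STAT5 induces, were abundant: CISH was 88.5, 86.9 and 84.3 RPKM in DMSO RNA and 92.7, 83.3 and 85.6 in silvestrol RNA. CISH had a log2 change in translational efficiency of -0.08 (SE 0.26, limma adjusted p = 0.978). PTPN11, the phosphatase SHP2, had the largest change in this list at 0.63 (SE 0.31, adjusted p = 0.695), and with 1 spread for both assays it was called higher (adjusted p = 0.0233). Its footprints were 1.96 and 1.81 RPKM under DMSO and 2.95 and 3.37 under silvestrol at an RNA level near 42 RPKM, and 55.6% of its coding windows of 30 bases recur in other genes, so its level is uncertain. PIAS2 at 0.48 (SE 0.29, adjusted p = 0.766) and PIAS3 at -0.44 (SE 0.28, adjusted p = 0.791) came next. The same 3 led in footprints, PTPN11 at 0.62, PIAS2 at 0.47 and PIAS3 at -0.41 (adjusted p = 0.738, 0.769 and 0.810). In RNA the largest differences were 0.09 for SOCS1, -0.05 for PTPRC and 0.04 for SOCS4 (adjusted p = 0.735, 0.834 and 0.872).

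Among 16 genes known as STAT5 targets, PIM1 and PIM2 included, 11 were tested. In RNA 1 of 11 was called, MYC, which rose; in translational efficiency and footprints 0 of 11 were called, with 2 at an unadjusted p under 0.05 in each. MYC, a growth-promoting transcription factor that also counts among the PIM substrates, had RNA of 82.3, 77.7 and 73.8 RPKM under DMSO and 112, 98.0 and 98.7 RPKM under silvestrol. The silvestrol libraries were all higher, with a log2 change of 0.40 and an SE of 0.06 (limma adjusted p = 0.0451). Leaving out any single RNA library other than the silvestrol replicate 1 took that call away at changes of 0.36 to 0.44, as did median scaling (adjusted p = 0.0811), TMM-type scaling (adjusted p = 0.0592) and no filter on low values (adjusted p = 0.471). The call held with either other pseudocount and with a filter of 5 RPKM (adjusted p = 0.0135). MYC footprints were 136 and 142 RPKM under DMSO and 113 and 123 under silvestrol, a log2 change of -0.24 (SE 0.12). Its log2 change in translational efficiency was -0.63 (SE 0.39, adjusted p = 0.777), called lower with 1 spread for both assays (adjusted p = 0.0180). That SE of 0.39 exceeds those of its footprint change, 0.12, and RNA change, 0.06, since each assay was weighted alike for all genes.

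BCL2 and BCL2L1, survival genes of the target list, had the other large differences, and neither passed the test. BCL2, an inhibitor of apoptosis, was 3.45 and 4.95 RPKM in DMSO footprints and 2.31 and 1.99 in silvestrol footprints, with RNA of 5.73 to 6.18 and 6.16 to 6.38 RPKM. BCL2L1, its relative that encodes BCL-XL, was 35.7 and 35.4 RPKM in DMSO footprints and 23.4 and 25.2 in silvestrol footprints, with RNA of 68.8 to 70.5 and 70.0 to 72.6 RPKM. Both were lower in every silvestrol footprint library at an RNA level that was not lower. The log2 change in translational efficiency was -0.89 for BCL2 (SE 0.30, limma adjusted p = 0.476) and -0.57 for BCL2L1 (SE 0.17, adjusted p = 0.392). With 1 spread for both assays BCL2 and BCL2L1 were called lower (adjusted p = 0.0393 and 0.00443). In footprints alone the differences were -0.81 for BCL2, -0.54 for BCL2L1 and -0.34 for SOCS2 (adjusted p = 0.685, 0.600 and 0.789). Of the coding windows of BCL2L1, 80.0% recur in other genes. The median log2 change in translational efficiency of the 11 target genes was -0.35, that of PIM1, and 9 of 11 lay below 0, against 6169 of 10297. MCL1, another survival gene, was 28.2 and 21.0 RPKM in DMSO footprints and 24.8 and 26.6 under silvestrol, with a log2 difference in translational efficiency of 0.08. Cyclin D3 (CCND3), at 135 to 141 RPKM in DMSO RNA, was the abundant D-type cyclin, with CCND1 and CCND2 under 0.2 RPKM in every RNA library.

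Of 14 PIM substrates 11 were tested, and again MYC in RNA was the only call; in translational efficiency and footprints 0 of 11 were called, with 1 and 0 at an unadjusted p under 0.05. In translational efficiency their median log2 change was 0.00, with 6 of 11 below 0. RUNX1, a transcription factor, had footprints of 15.1 and 13.3 RPKM under DMSO and 10.8 and 10.7 under silvestrol. Its log2 change in translational efficiency was -0.48 (SE 0.19, limma adjusted p = 0.594), called lower with 1 spread for both assays (adjusted p = 0.0268). The cell cycle phosphatase CDC25A followed at -0.19 (SE 0.17, adjusted p = 0.871). In footprints RUNX1, MYC and CDC25A differed by -0.38, -0.24 and -0.15 (adjusted p = 0.738, 0.738 and 0.844). BAD, a pro-apoptotic protein that PIM kinases phosphorylate, had footprints of 31.0 and 21.1 RPKM under DMSO and 24.9 and 25.3 under silvestrol. EIF4B, a cofactor of eIF4A that PIM kinases also phosphorylate, had RNA of 71.4 to 74.1 RPKM but footprints of 1.58 and 2.55 under DMSO, a ratio of 0.0283. Of its coding windows 91.4% recur in other genes, and its part in that ratio was not tested.

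The genes whose pattern over the 10 libraries came closest to those of IL7R and PIM1 were sought among 9017 tested protein-coding genes, by Euclidean distance between log2 values centred within each assay. For IL7R they were EXOC2, JRKL and BCCIP, at distances of 0.08, 0.10 and 0.11, against a median distance of 0.53. For PIM1 they were DBF4, EPB41L2 and NIBAN2, at 0.12 each, against a median of 0.70. DBF4 had mean footprints of 8.48 RPKM under DMSO and 6.48 under silvestrol at RNA means of 24.4 and 23.6 RPKM. The measure describes likeness across these libraries only.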

How the data were processed

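The RPKM values were deposited by the authors, 1 file per library, with gene IDs and values per the file headers. The submitters' processing notes name STAR and hg19; the counting tool, gene annotation, strand setting and handling of reads that match several places were not given in the sources used here. Of 55889 IDs, 49395 were named from a gene-name table and 267 from GENCODE 29. RPKM were used as log2(RPKM + 0.5), so the change of a gene near the pseudocount is understated. Genes with a mean of at least 1 RPKM in RNA and in footprints were tested, 10297 in all, with limma 3.58.1 in R 4.3.3 (eBayes with trend and robust estimation, Benjamini-Hochberg adjustment over all tested genes, called at an adjusted p under 0.05). RNA was fitted on 6 libraries, footprints on 4, and translational efficiency as the interaction of assay and treatment on all 10, with weights estimated per assay because footprints vary more than RNA. These weights were common to all genes, so the SE of a single gene can be too small or too large. The fits were also run on simulated data with the same added spread for all genes of an assay. In that run the fit with 1 spread for both assays made false calls, so it was kept as an alternative only. The run does not cover genes whose spread departs from the common one.

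Estimated read numbers use the exon length of GENCODE 29 models and totals derived from the steps of low RPKM values. GENCODE 29 is on GRCh38, so it served for names, lengths, leader sequences and the coordinates printed, not for coordinates of the authors' data. The transcript of each gene was its principal one by APPRIS, then by CCDS membership, then by length. Genes were named by rule: the 10 genes throughout, in each other list every called gene or otherwise the 3 with the largest absolute change, and the 3 nearest patterns of IL7R and PIM1. Values of IL7, CRLF2, IL2RA, IL2RB, PIM3, CISH, MCL1, the D-type cyclins, BAD and EIF4B were added for their role after values were seen. One gene that the rule names is not reported here. The 10 genes and the lists were chosen with earlier results of these data known. Alternatives were other pseudocounts, filters and scalings, 1 spread for both assays, a replicate block and leaving out each library.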

Additional observations from a re-analysis of the deposited data

How the results depend on the processing

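None of the 10 genes was called in any comparison under any alternative run that tested it or with any single library left out. IL7R, JAK3 and PIM2 were not tested with the filter of 5 RPKM, which they did not pass. The lowest limma adjusted p was 0.148, for JAK1 in translational efficiency with 1 spread for both assays. Of 218 values of single genes under alternatives, 212 kept their direction and their side of the threshold. The exceptions were IL2RG in translational efficiency, 0.0182 with TMM-type scaling; TYK2 in RNA, -0.00791 with median scaling and -0.00166 with TMM-type scaling; and MYC in RNA, whose call was lost with median scaling, TMM-type scaling and no filter. With 1 library left out, 17 of 206 values changed sign and 5 lost the call, all 5 being MYC in RNA (0.36 to 0.44 in those 5). In translational efficiency the ranges were -0.347 to 0.0995 for STAT3, -0.0961 to 0.209 for IL7R, -0.64 to 0.88 for JAK3 and -0.761 to 0.000863 for PIM2. In footprints they were -0.360 to 0.0863 for STAT3, -0.67 to 0.85 for JAK3 and -0.0329 to 0.272 for IL7R. In RNA they were -0.0410 to 0.0447 for TYK2, -0.0521 to 0.00184 for JAK1, -0.0264 to 0.00979 for STAT3 and -0.0699 to 0.00130 for JAK3. The cause was not tested.

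Counts over all tested genes moved more. In translational efficiency 11 genes were called, 271 of 34844 without the filter on low values, 545 with 1 spread for both assays, and 8 to 44 with 1 library left out. In footprints 5 were called, 2 with a pseudocount of 0.1, 0 without the filter (964 at an unadjusted p under 0.05), 2 at a mean of at least 5 RPKM, 8 with TMM-type scaling, and 0 to 0 with 1 library left out. In RNA 29 were called, 0 without the filter (1798 at an unadjusted p under 0.05) and 0 to 35 with 1 library left out. Deviations of same-numbered libraries from their group means correlated at -0.03 in footprints and at 0.04, -0.33 and 0.15 in RNA. With so few libraries per group, these correlations cannot settle whether replicate numbers pair the libraries. With the replicate number as a block, 14 genes were called in translational efficiency, 1 in footprints and 57 in RNA, MYC among these (adjusted p = 0.000216). Depth limits IL7R, JAK3 and PIM2 most, with as few as 24, 20 and 14 footprint reads in a library.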
